A study of Schizosaccharomyces pombe with 6 samples.

Results

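Loss of Air1 was examined by setting fission yeast cells that lack the air1 gene (air1delta) against their wild type parent on Affymetrix tiling arrays. All features of the deposited table were compared between 2 air1delta arrays and 2 wild type arrays, 4 of the 6 arrays of the series. The gene air1 itself was left out, so 5482 of 5483 features were described. The air1delta strain was SPB103 and the wild type strain was SPB76, and the remaining 2 arrays held a strain without cid14 (cid14delta, SPB101). All strains were grown in the rich medium YES at 30 °C and harvested at an OD600 of 0.5. Total RNA was extracted with hot phenol and turned into biotin-labelled, double-stranded target. Strand was therefore lost, and the signals of a gene, of its antisense partner and of an overlapping gene could not be told apart. The labels call the 2 arrays of a strain biological replicates. Each array measured a whole culture, in which fewer expressing cells and less RNA per cell cannot be told apart.

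Air1 is a zinc-knuckle protein of the TRAMP complex, in which it works with the poly(A) polymerase Cid14 and the RNA helicase Mtr4. TRAMP adds short poly(A) tails to RNAs in the nucleus and hands them to the exosome, the main 3′ to 5′ RNA-degrading machine. In fission yeast the complex is known for turnover of aberrant ribosomal and transfer RNA precursors, of noncoding transcripts and of RNA from heterochromatin.

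The deleted genes followed the labels. The signal of air1 was 4.42 and 4.90 on the air1delta arrays, against 10.46 and 10.64 on the cid14delta arrays and 10.49 and 10.40 on the wild type arrays, all on the log2 scale of the deposited values. The signal of cid14 was 9.00 and 8.95 on the air1delta arrays, against 3.91 and 3.63 on the cid14delta arrays and 8.92 and 8.84 on the wild type arrays. The highest signal of a deleted gene on an array of its own deletion strain, 4.90, served as the level of no expression, and 5039 features averaged above it. Array medians were 9.27 and 9.29 in air1delta and 9.21 and 9.21 in wild type. The median absolute difference between replicates was 0.0902 in air1delta and 0.0922 in wild type on the log2 scale. By the identifiers in the labels, the air1delta arrays came from another array series than all wild type and cid14delta arrays, and the air1delta cultures carried other dates. Array series and date thus cannot be told apart from the deletion of air1 in any value below.

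Loss of Air1 went with many changes of modest size. With limma's moderated test on all 6 arrays, 1434 features (26.2%) differed between air1delta and wild type at a Benjamini-Hochberg adjusted p under 0.05, of which 901 were higher (16.4%) and 533 lower (9.72%), and 532 of the lower ones were features other than air1. Among the 901 rises, 53 reached 1 on the log2 scale, 343 lay between 0.5 and 1, and the median was 0.47. Among the 532 falls, 11 reached 1, 116 lay between 0.5 and 1, and the median was -0.38. Both air1delta values lay outside the range of the wild type values for every one of these features, and this separation also held for 39.3% of all features above and 29.7% below the wild type values. For comparison, 475 features (8.66%) passed the same test in cid14delta, a contrast that uses the same wild type arrays.

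The balance of rises and falls depended on the scaling. Rises made up 62.8% of the calls on the values as deposited, but 43.7% after each array was centred on its own median (640 higher, 826 lower) and 48.2% after quantile normalization (616 higher, 662 lower). The number of calls also rested on single arrays. When air1delta replicate 1 or 2 was left out, it dropped to 324 or 273, and when wild type replicate 1 or 2 was left out, to 952 or 535. Without either cid14delta array it was 870. Most counts of list members below were also lower without wild type replicate 2 or either air1delta array.

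**Figure D1:**
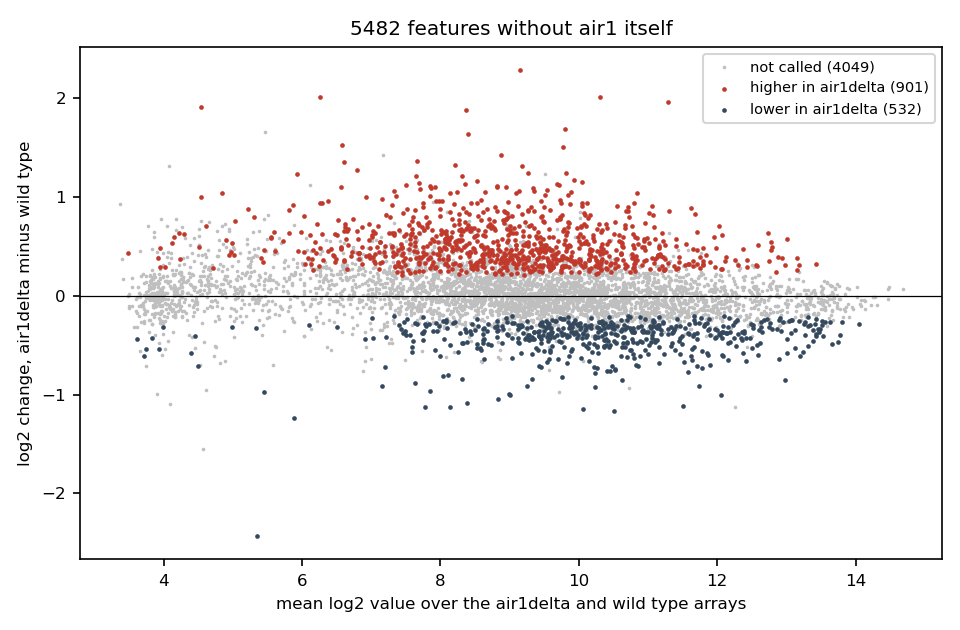
Log2 change (air1delta minus wild type) of 5482 features against the mean log2 level over the 4 arrays of both strains, 1 point per feature, coloured by call. Called rises (901) outnumbered called falls (532), most changes were under 1, and the calls among features of high signal were mostly falls.

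The largest rise was that of sqs2, with 10.37 and 10.21 in air1delta, against 7.95 and 8.07 in wild type. Its log2 change was 2.28 ± 0.09 (SE), a 4.85-fold increase (limma adjusted p = 0.00152). Both air1delta cultures lay far above both wild type cultures, and the cid14delta cultures (9.15 and 9.04) lay in between. The pseudogene SPCC18B5.02c followed with 11.22 and 11.40 in air1delta, against 9.23 and 9.37 in wild type, a change of 2.01 ± 0.10. The subtelomeric gene ftm4 had 12.31 and 12.23 in air1delta, against 10.18 and 10.43 in wild type, a change of 1.96 ± 0.13. The cid14delta changes of sqs2, SPCC18B5.02c and ftm4 were 1.08, 1.30 and 1.64. Their groups did not overlap, and their calls were kept when any single air1delta or wild type array was left out. A feature without a match in the reference table, SPBPB2B2.03c, was singled out after its values were seen. It had 7.39 and 7.12 in air1delta, against 7.24 and 7.19 in cid14delta and 4.83 and 5.67 in wild type (change 2.01 ± 0.27).

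Uncharacterised genes filled much of the rest of the list. SPCC191.05c rose by 1.87 ± 0.12, SPBC23G7.10c by 1.69 ± 0.15, SPAPB1E7.01c by 1.51 ± 0.11, SPCC663.08c by 1.43 ± 0.12 and SPAC5H10.04 by 1.32 ± 0.09, and their changes in cid14delta were 1.46, 0.73, 1.07, 0.54 and 1.23. SPAC977.04 measured 5.50 and 5.48 in air1delta, against 3.83 and 3.34 in wild type. Since its wild type level lay below that of a deleted gene, its rise is a bound of at least 1.51-fold, and the call was lost without either air1delta array. The long noncoding RNA prt2, transcribed upstream of the phosphate transporter gene pho84, had 10.49 and 10.38 in air1delta, against 9.17 and 9.22 in wild type (change 1.24 ± 0.07, adjusted p = 0.00486). In cid14delta it measured 10.13 and 10.22. The adjacent pho84 was not called, with 12.33 and 12.28 in air1delta, against 12.47 and 12.16 in wild type.

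Other large rises were less steady between replicates. The ubiquitin-like modifier gene ned8 had 7.02 and 7.67 in air1delta, against 6.38 and 5.25 in wild type, a change of 1.53 ± 0.41. SPAC27E2.14 had 9.76 and 8.68 in air1delta, against 7.92 and 7.25 in wild type, a change of 1.63 ± 0.39. Both were close to the threshold (adjusted p = 0.0451 and 0.034), and neither was called after quantile normalization. The call on ned8 was also lost without wild type replicate 2 or either air1delta array, and that on SPAC27E2.14 without wild type replicate 2 or air1delta replicate 1. The gene gnr1, a Gβ-like negative regulator of the pheromone response, had 7.79 and 7.08 in air1delta, against 6.26 and 6.07 in wild type and 6.12 and 6.35 in cid14delta (change 1.27 ± 0.24). Without wild type replicate 2 this call was lost. The gene rmr1 rose by 1.31 ± 0.19 and was not called without air1delta replicate 2.

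**Figure D2:**
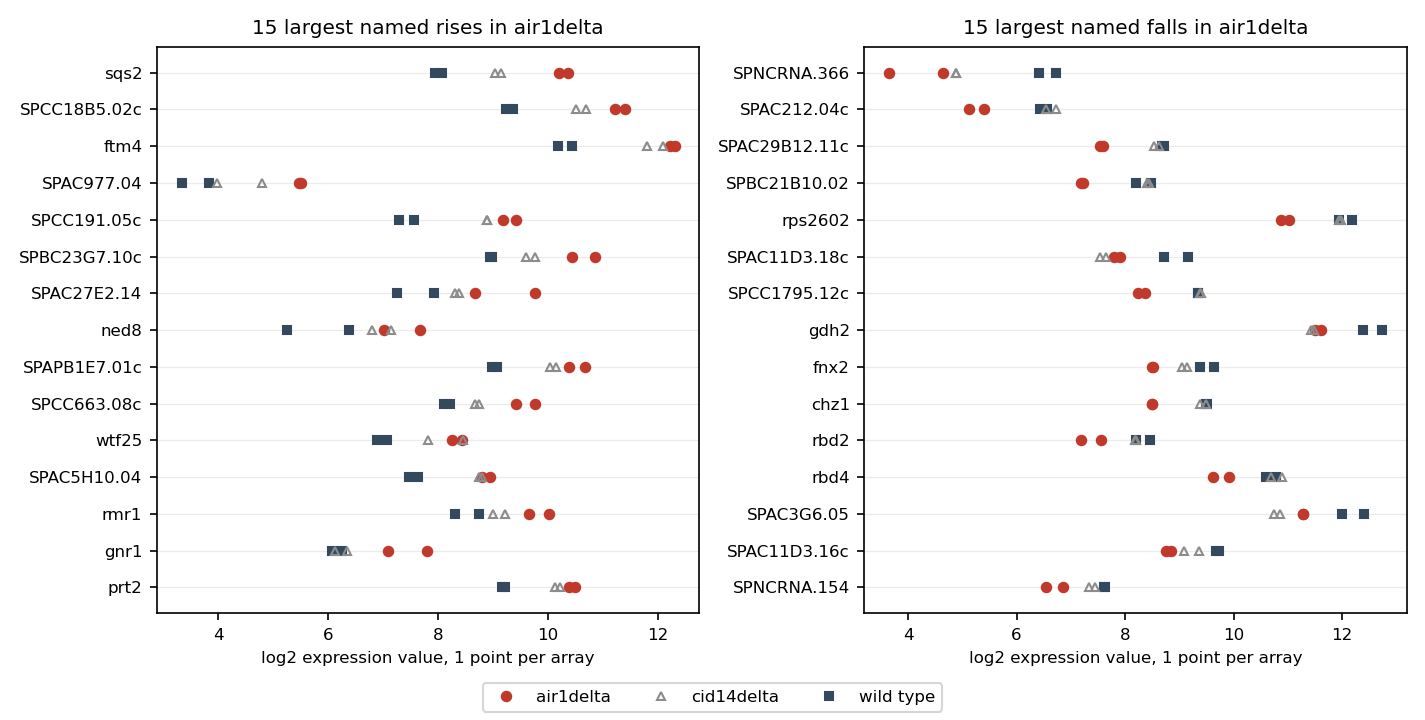
Log2 values on each of the 6 arrays for the 15 largest named rises (left) and the 15 largest named falls (right) in air1delta, 1 point per array. Both air1delta values lie to the right of both wild type values in the left panel and to the left of them in the right panel. This separation was a condition for the choice of these genes. The cid14delta values lie near either strain, in between or, as for SPAC11D3.18c and SPAC3G6.05, beyond those of air1delta.

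Few falls were as large. The noncoding RNA SPNCRNA.366 had 4.63 and 3.65 in air1delta, against 6.73 and 6.41 in wild type, a drop to the level of a deleted gene and hence at least 3.18-fold lower (adjusted p = 0.0108). The subtelomeric gene SPAC212.04c had 5.12 and 5.41 in air1delta, against 6.43 and 6.56 in wild type (change -1.23 ± 0.13), and 6.73 and 6.53 in cid14delta. Its neighbour in name SPAC212.03, with 3.70 and 3.88 in air1delta, against 5.06 and 5.61 in wild type, was not called (adjusted p = 0.0804). Among the remaining falls, SPAC29B12.11c changed by -1.13 ± 0.06, SPBC21B10.02 by -1.13 ± 0.10 and SPCC1795.12c by -1.04 ± 0.07. In cid14delta these 3 genes changed by -0.13, 0.08 and 0.04. Their groups did not overlap, which was a condition for this list, and every fit without 1 air1delta or wild type array kept their calls.

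The gene chz1, which encodes a histone chaperone for H2A.Z, had 8.50 and 8.50 in air1delta, against 9.51 and 9.49 in wild type and 9.39 and 9.49 in cid14delta (change -0.997 ± 0.06, adjusted p = 0.00486). Its replicates were nearly the same and the strains were well apart. The genes rbd2 and rbd4, which encode rhomboid-family membrane proteins (Rbd2 is a protease that activates the sterol-responsive factor Sre1), changed by -0.96 ± 0.14 and -0.92 ± 0.13, against -0.14 and 0.10 in cid14delta. The call on rbd2 was lost without air1delta replicate 1 and that on rbd4 without air1delta replicate 2. In contrast, SPAC11D3.18c and SPAC3G6.05 changed by -1.08 and -0.92 in air1delta and by -1.35 and -1.39 in cid14delta, and neither air1delta call held without air1delta replicate 1 or 2. The difference between the 2 deletion strains was not tested.

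Genes of the exosome and its cofactors were called upward on the values as deposited. Of 22 measured genes for TRAMP, the exosome and nuclear RNA elimination factors (air1 left out), 6 rose (27.3%, against 16.4% of all features) and none fell, with a median change of 0.19, against a median of 0.034 over all features. The exosome core gene csl4, which encodes a cap subunit, had 10.57 and 10.42 in air1delta, against 9.71 and 9.64 in wild type and 9.79 and 9.76 in cid14delta (change 0.82 ± 0.07, adjusted p = 0.00749). The ring subunit gene rrp41 had 9.35 and 9.35 in air1delta, against 8.68 and 8.31 in wild type (change 0.86 ± 0.12). The nuclear exonuclease gene rrp6 rose by 0.59 ± 0.08, and the genes for the exosome cofactors Mpp6 and Cti1 by 0.64 and 0.40. The last of the 6 was the ring subunit gene rrp46, with a change of 0.45.

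The partners of Air1 in TRAMP were not among them. The helicase gene mtr4 had 11.60 and 11.62 in air1delta, against 11.56 and 11.38 in wild type (adjusted p = 0.231), and cid14 changed by 0.09 ± 0.10 (adjusted p = 0.53). The catalytic exosome gene dis3 changed by 0.10 and the helicase gene mtl1 by -0.08, and neither was called. After centring, quantile normalization or removal of the length trend, 5 were higher and 1 was lower. The count of 6 became 3 without wild type replicate 2 and 2 without air1delta replicate 1 or 2. The call on csl4 held in each of those fits, whereas those on rrp41 and rrp6 were lost without either air1delta array and that on cti1 without any one of the 4.

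Heterochromatin and RNA interference genes gave a mixed picture. Of 25 measured, 8 rose (32.0%, against 16.4% of all features) and 1 fell, with a median change of 0.13 that became 0.0029 after quantile normalization. The largest change was in stc1, whose protein links the RNA interference machinery to the histone methyltransferase complex. It had 9.15 and 9.20 in air1delta, against 8.24 and 8.01 in wild type and 8.29 and 8.21 in cid14delta (change 1.05 ± 0.09, adjusted p = 0.00749). The deacetylase gene sir2 rose by 0.60 ± 0.08 and the Argonaute-binding arb1 by 0.61 ± 0.09. Smaller rises included those of dsh1 (0.41), cid12 (0.40), chp2 (0.37) and the RNA-directed RNA polymerase gene rdp1 (0.33).

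The anti-silencing factor gene epe1 was the 1 that fell, with 9.10 and 9.01 in air1delta, against 9.52 and 9.49 in wild type (change -0.45 ± 0.06). The genes for Argonaute (ago1, 0.11), Dicer (dcr1, 0.09), the histone methyltransferase (clr4, -0.15) and the HP1 protein Swi6 (swi6, 0.28) were not called. The count of rises was 5 after quantile normalization, 3 when wild type replicate 2 was left out, and 2 and 1 when air1delta replicate 1 and then 2 was left out. Of the named members, stc1 was called in all of these fits.

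Ribosome assembly genes were called upward or not at all. Of 39 factors that build the large ribosomal subunit, 17 rose (43.6%, against 16.4% of all features) and none fell, with a median of 0.28, while 22 were not called. The pre-60S factor gene ebp2 had 10.36 and 10.39 in air1delta, against 9.74 and 9.62 in wild type and 10.17 and 10.22 in cid14delta (change 0.70 ± 0.07, adjusted p = 0.00773). Changes of nop4, rpf1 and nip7 were 0.74 ± 0.09, 0.55 ± 0.06 and 0.52 ± 0.06, and each of these 4 genes kept its call in every fit without 1 air1delta or wild type array. The largest change of the list was in rrp14, with 11.50 and 11.23 in air1delta, against 10.61 and 10.05 in wild type (change 1.04).

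Small-subunit and nucleolar factors behaved alike in number. Of 47 genes, 20 rose (42.6%, against 16.4% of all features) and none fell, with a median of 0.29. The gene rrp36, needed for early cleavages of the ribosomal RNA precursor, had 8.27 and 8.44 in air1delta, against 7.46 and 7.23 in wild type (change 1.01 ± 0.10, adjusted p = 0.00796). The helicase gene rok1 had 8.41 and 8.38 in air1delta, against 7.69 and 7.49 in wild type (change 0.81 ± 0.08). Both genes lay outside the wild type range in each air1delta culture, as did every called feature. Their calls were kept without any single array of these 2 strains. Further rises included rrp7 (0.72), the 20S pre-rRNA endonuclease gene nob1 (0.77), the kinase gene rio1 (0.50) and the nucleolin-like gar2 (0.51). Of 15 genes named utp, a group chosen after its values were seen, 5 rose, against 16.4% of all features.

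These counts moved with the scaling and with single arrays. After quantile normalization 18 large-subunit and 19 small-subunit factors rose, after centring 13 and 18, and with the length trend removed 15 and 16. Centring also made 2 small-subunit factors lower. Large-subunit factors numbered 6 without wild type replicate 2 and 4 without air1delta replicate 1 or 2. Small-subunit factors numbered 10 when wild type replicate 2 was left out, and 9 and 7 when air1delta replicate 1 and then 2 was left out. In cid14delta 9 of the large-subunit and 8 of the small-subunit factors rose, at 4.78% of all features, in a contrast that shares the wild type arrays.

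Genes for tRNA modification formed another list with many rises. Of 52 genes, 21 rose (40.4%, against 16.4% of all features) and 1 fell, with a median of 0.26. The tRNA methyltransferase gene trm10 had 8.42 and 8.43 in air1delta, against 7.59 and 7.51 in wild type and 7.83 and 7.87 in cid14delta (change 0.88 ± 0.06, adjusted p = 0.00486). The pseudouridine synthase gene pus1 had 9.73 and 9.71 in air1delta, against 9.18 and 9.21 in wild type (change 0.52 ± 0.06). Both were higher in each air1delta culture than in any wild type culture, as was every called rise. The methyltransferase gene trm11 rose by 0.51 ± 0.06 and the Elongator subunit gene elp2 by 0.52 ± 0.07, a call that was lost without air1delta replicate 1. The largest changes of the list were in slm3, for thiolation of mitochondrial tRNA, and kti12, a partner of Elongator, at 0.96 each.

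The list was also read by families, which were picked after the values were seen. Over all features 16.4% rose and 9.72% fell. Of 21 genes named trm, 8 rose and trm5 fell by 0.23. Of the 6 pus genes, 2 rose (pus1 and pus4). None of the 4 dihydrouridine synthase genes (dus) was called. The number of rises in the whole list was 16 after quantile normalization and 18 with a trend of change with gene length removed. It was 10 when wild type replicate 2 was left out, and 5 and 4 when air1delta replicate 1 and then 2 was left out.

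Genes of the RNA polymerases were called mostly upward. Of 29 genes for RNA polymerases I and III and their factors, 7 rose (24.1%, against 16.4% of all features) and 2 fell, with a median of 0.15. The polymerase III subunit gene rpc34 had 9.77 and 9.75 in air1delta, against 9.22 and 9.16 in wild type (change 0.57 ± 0.06, adjusted p = 0.00796). The polymerase III gene rpc31 rose by 0.61 ± 0.07. Of 23 genes for RNA polymerase II and elongation factors, 8 rose (34.8%) and none fell, led by the subunit gene rpb4 with 11.19 and 11.35 in air1delta, against 10.43 and 10.24 in wild type (change 0.93 ± 0.10). These 3 genes were called in every fit without 1 air1delta or wild type array. The list counts were not stable, with 4 rises in each after quantile normalization and, for polymerase II, 1 or 2 without any one air1delta or wild type array.

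Splicing genes were called mostly in the upward direction. Of 80 spliceosome genes, 25 rose (31.3%, against 16.4% of all features) and 3 fell, with a median of 0.22. The largest change was in usp103, which encodes the C protein of the U1 snRNP and is a neighbour of air1. It had 8.01 and 8.13 in air1delta, against 7.02 and 6.89 in wild type and 7.22 and 7.19 in cid14delta (change 1.11 ± 0.08, adjusted p = 0.00486). The gene cwf12 had 10.08 and 9.97 in air1delta, against 9.08 and 8.93 in wild type (change 1.02 ± 0.08), and cwf26 and cwf25 rose by 0.86 ± 0.07 and 0.85 ± 0.08. All 4 were called without any single array of these 2 strains.

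Within the list, 11 of 22 genes named cwf, which encode proteins found with the Cdc5 spliceosomal complex, rose and none fell. Of 21 genes named prp, 5 rose and none fell. None of the 14 Sm and Lsm genes, which encode the ring proteins of the small nuclear RNPs, rose, and smd2 and lsm6 changed by -0.31 and -0.47. These groups too were formed after the values were seen, and over all features 16.4% rose and 9.72% fell. The 25 rises became 17 after quantile normalization, 11 when wild type replicate 2 was left out, and 7 and 6 when air1delta replicate 1 and then 2 was left out.

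**Figure D3:**
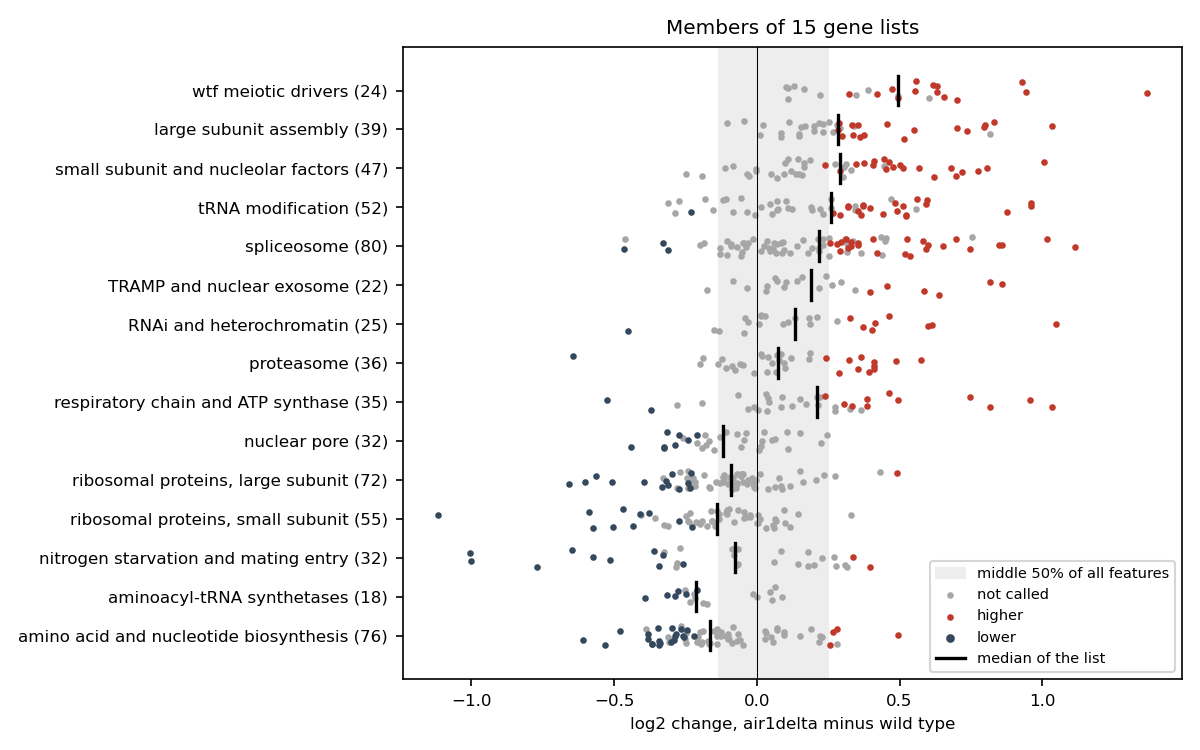
Log2 change (air1delta minus wild type) of each member of 15 gene lists, with the number of members in brackets, points coloured by call, a black bar at the list's median and a grey band over the interquartile range of all features. Medians of the ribosome assembly, tRNA modification and wtf lists lie at or above the upper edge of the band. Those of the aminoacyl-tRNA synthetase and amino acid lists and, narrowly, of the small-subunit ribosomal protein list lie below its lower edge.

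Ribosomal protein genes, in contrast to the assembly factors, were called mostly in the downward direction. Of 72 genes of the large subunit, 13 fell and 1 rose (median -0.09), and of 55 genes of the small subunit, 10 fell and none rose (median -0.14). The falls made up 18.1% and 18.2%, against 9.72% of all features and 17.5% of the protein-coding genes in the bin of highest signal out of 5. The largest change was in rps2602, with 11.02 and 10.88 in air1delta, against 12.19 and 11.94 in wild type and 11.97 and 11.94 in cid14delta (change -1.12 ± 0.10, adjusted p = 0.00749). Its paralogue rps2601 had 13.58 and 13.59 in air1delta, against 13.72 and 13.77 in wild type, and was not called (adjusted p = 0.109). Thus 1 of the 2 genes for this protein fell well outside the wild type range while the other did not pass the test.

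With the stalk proteins included, 25 of 134 ribosomal protein genes fell and 2 rose. Of 54 families with more than 1 gene, 20 had at least 1 gene that fell and only 1 had every gene fall. Further falls were those of rpl1602 (-0.66 ± 0.09), rpl2002 (-0.60 ± 0.06), rps901 (-0.57 ± 0.08) and rps403 (-0.47 ± 0.06). The exceptions were rpl3802, which rose by 0.49 ± 0.07, and the stalk gene rpp202, with 11.84 and 11.62 in air1delta, against 10.90 and 10.86 in wild type (change 0.85 ± 0.10). Paralogues are near-identical in sequence and can share probe signal, so the split between them is uncertain.

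Counts for ribosomal proteins depended on the scaling. Falls in the large and small subunit numbered 8 and 7 after quantile normalization, but 20 and 18 after centring on the array medians and 27 and 26 with the trend with gene length removed. When wild type replicates 1 and 2 and then air1delta replicates 1 and 2 were dropped in turn, the large subunit had 5, 2, 4 and 1 falls and the small subunit had 6, 5, 3 and 2. The calls on rps2602, rpl2002 and rps403 were kept in all 4 of those fits, those on rpl1602 and rps901 were lost without air1delta replicate 2, and that on rpl3802 without either air1delta array.

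Several genes of nitrogen metabolism and amino acid synthesis fell in air1delta. The NAD-dependent glutamate dehydrogenase gene gdh2 had 11.51 and 11.61 in air1delta, against 11.44 and 11.48 in cid14delta and 12.38 and 12.74 in wild type (change -1.01 ± 0.13, adjusted p = 0.00977). The NADP-dependent counterpart gdh1 changed by -0.65 ± 0.10 and the ammonium transporter gene amt1 by -0.77 ± 0.09. Of the transporters, fnx2, which belongs to a family that carries amino acids into the vacuole, had 8.51 and 8.50 in air1delta, against 9.38 and 9.64 in wild type (change -1.002 ± 0.10). Of 32 genes linked to nitrogen starvation and entry into mating, 10 fell (31.3%, against 9.72% of all features) and 2 rose, with a median of -0.08. The calls on gdh1 and gdh2 were lost without either air1delta array, and the falls then numbered 2, against 4 without wild type replicate 2.

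Of 76 genes for synthesis of amino acids and nucleotides, 21 fell (27.6%, against 9.72% of all features) and 4 rose, with a median of -0.17. In the highest of 5 bins of signal, which holds the median level of this list, 17.5% of protein-coding genes fell. The gene arg4, for the large subunit of carbamoyl phosphate synthetase, had 12.91 and 12.86 in air1delta, against 12.85 and 12.86 in cid14delta and 13.49 and 13.50 in wild type (change -0.61 ± 0.06, adjusted p = 0.00749). The lysine synthesis gene lys1 had 11.92 and 11.92 in air1delta, against 11.71 and 11.68 in cid14delta and 12.37 and 12.43 in wild type (change -0.48 ± 0.06). Both genes were lower in each culture of either deletion strain than in any wild type culture and kept their calls without any single air1delta or wild type array. Of 8 arginine genes, grouped after the values were seen, 5 fell (arg1, arg4, arg6, arg11 and arg12) and none rose. Of 18 aminoacyl-tRNA synthetase genes, 6 fell (33.3%, against 9.72% of all features and 17.5% in the highest bin of signal) and none rose. The median of the 18 was -0.21, with changes of -0.39 in frs1 and -0.31 in krs1.

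The number of these falls moved with scaling and with single arrays. For the amino acid and nucleotide list the number of falls was 34 after centring on the array medians, 13 after quantile normalization, 16 and 2 when wild type replicate 1 or 2 was left out, and 4 and 2 when air1delta replicate 1 or 2 was. For the synthetases it was 11 after centring, 4 after quantile normalization, 1 without wild type replicate 1 and 0 without any other single array of these 2 strains. In cid14delta 22 of the 76 genes and 5 of the 18 genes were lower, at 3.88% of all features, against the same wild type arrays. The biotin transporter gene vht1 had 12.60 and 12.50 in air1delta, against 11.86 and 11.96 in cid14delta and 13.22 and 13.58 in wild type (change -0.85 ± 0.13), and was not called without either air1delta array.

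Mitochondrial genes called higher included those of respiratory complex III. Of its 9 genes, grouped after the values were seen, 6 rose, against 16.4% of all features, and none fell. The subunit gene qcr8 had 9.76 and 9.48 in air1delta, against 8.63 and 8.54 in wild type and 9.24 and 9.23 in cid14delta (change 1.03 ± 0.10, adjusted p = 0.00796). The gene qcr6 rose by 0.82 ± 0.09 and qcr7 by 0.38 ± 0.06, a call that was lost without either air1delta array. Over all 35 genes of the respiratory chain and ATP synthase, 11 rose (31.4%, against 16.4% of all features) and 2 fell (median 0.21), the falls being the complex II gene sdh3 (-0.52 ± 0.07) and the ATP synthase gene atp14 (-0.37). The call on sdh3 was lost without air1delta replicate 1. In cid14delta 11 of the 35 rose, at 4.78% of all features, against the same wild type arrays. The rises numbered 6 with the trend with gene length removed, 5 without either wild type array, 3 without air1delta replicate 1 and 4 without air1delta replicate 2.

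The proteasome list held 11 rises (30.6%, against 16.4% of all features) and 1 fall among 36 genes, with a median of 0.07. The lid subunit gene rpn501 had 11.65 and 11.73 in air1delta, against 11.10 and 11.13 in wild type and 11.07 and 11.13 in cid14delta (change 0.57 ± 0.06, adjusted p = 0.00858). The 1 fall was in the catalytic-core gene pre1 (-0.64). Removal of the length trend left 7 rises, and 6 and 2 were left when wild type replicate 1 or 2 was dropped, and 1 and 2 when air1delta replicate 1 or 2 was. Of 61 mitochondrial ribosomal protein genes 13 rose (21.3%, against 16.4% of all features) and 4 fell, led by sws2 with 11.03 and 10.98 in air1delta, against 10.04 and 10.14 in wild type (change 0.91 ± 0.10). Quantile normalization gave 8 higher and 6 lower, and removal of the length trend 9 higher and 8 lower with a median of -0.020. The mitochondrial ribosomal rises numbered 5 without wild type replicate 2 or air1delta replicate 1, and 1 without air1delta replicate 2.

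The wtf genes, a family of spore killers that drive their own transmission through meiosis, were called in the upward direction or not at all in these vegetative cultures. Of 24 measured wtf genes, 14 were called higher (58.3%, against 16.4% of all features) and none lower, and the median was 0.49. The other 10 did not pass the test. For 21 of the 24 both air1delta values lay above both wild type values, a separation that held for 39.3% of all features. The values of wtf1, wtf2 and wtf11 overlapped with wild type. The largest change was in wtf25, with 8.43 and 8.26 in air1delta, against 8.46 and 7.82 in cid14delta and 6.89 and 7.06 in wild type (change 1.37 ± 0.21, adjusted p = 0.0149). The gene wtf13 had 9.77 and 9.13 in air1delta, against 7.92 and 8.38 in cid14delta and 8.54 and 8.47 in wild type (change 0.94).

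Next came wtf6, with 8.81 and 8.52 in air1delta, against 7.57 and 7.90 in cid14delta and 7.48 and 8.001 in wild type (change 0.93). The gene wtf23 had 9.99 and 9.98 in air1delta, against 9.53 and 9.33 in wild type (change 0.55 ± 0.10), and wtf7 rose by 0.70 ± 0.11. The wtf25 and wtf23 changes in cid14delta were 1.16 and -0.04, and the median over the family there was 0.08 with 2 genes called. In both strains 4 members had means no higher than a deleted gene, wtf1, wtf3, wtf12 and wtf15. Of these wtf3 is counted among the 14 calls, and no fold is given for it.

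The wtf calls depended on the scaling and on the arrays, although the direction of the median did not. After quantile normalization 4 of the 24 genes were called higher, after centring 11, and with the length trend removed 10, with medians between 0.32 and 0.56 over all alternatives. Dropping wild type replicate 1 or 2 left 7 or 4, dropping either air1delta array left 2, and wtf25 was among those lost without an air1delta array. Members of this family are similar in sequence, and some are pseudogenes, so probes can share signal between them and their values are not independent.

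**Figure D4:**
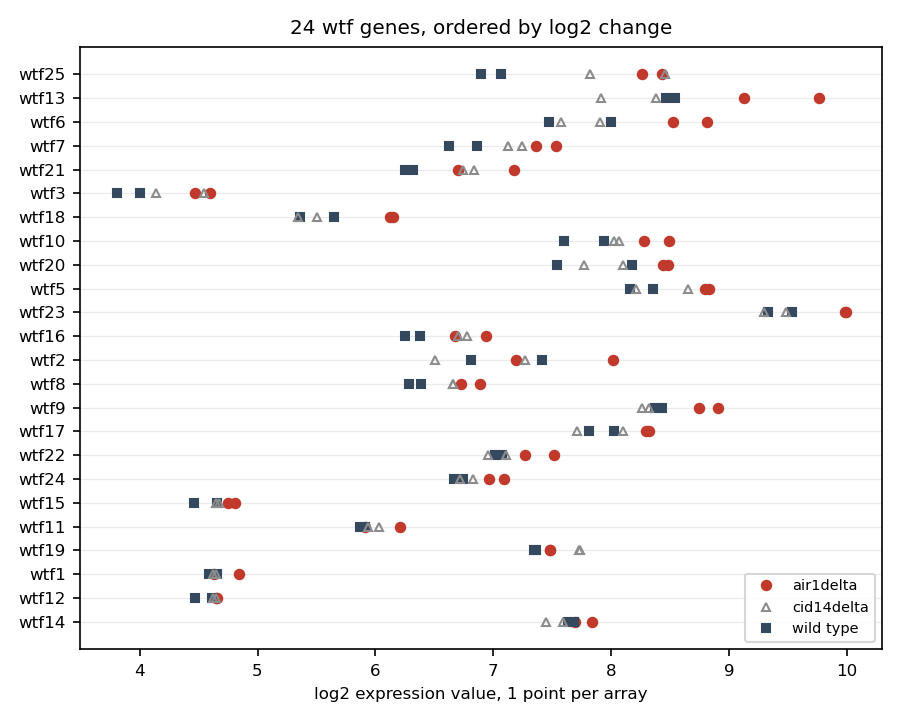
Log2 values on each of the 6 arrays for the 24 measured wtf genes, ordered from the largest to the smallest change in air1delta, 1 point per array. The air1delta points lie to the right of the wild type points for 21 genes, a separation that held for 39.3% of all features. The cid14delta points vary by gene, near those of air1delta for wtf25 and among or below those of wild type for wtf13.

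Meiotic transcripts that vegetative cells remove through the RNA-binding protein Mmi1 and the exosome were called in the upward direction or not at all. Of 21 such genes, 5 rose (23.8%, against 16.4% of all features) and none fell, with a median of 0.25. The meiotic recombination gene mcp7 had 8.26 and 8.25 in air1delta, against 8.16 and 8.29 in cid14delta and 7.46 and 6.79 in wild type (change 1.14 ± 0.21, adjusted p = 0.0208). The meiotic kinase gene mek1 rose by 0.64 ± 0.10, the cohesin gene rec11 by 0.38 ± 0.06 and mug9 by 0.66 ± 0.16. The forkhead factor gene mei4 had 7.33 and 7.35 in air1delta, against 7.10 and 6.47 in wild type, and was not called (adjusted p = 0.093). The meiotic cohesin gene rec8 had 5.46 and 5.56 in air1delta, against 5.52 and 5.29 in wild type, so that these groups overlapped. After quantile normalization 2 of the 21 were called and the median was 0.10. Leaving out wild type replicate 1 gave 7 calls, leaving out wild type replicate 2 gave 3, and leaving out air1delta replicate 1 or 2 gave 0.

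Markers of the mating types, which mark M and P cells, were also measured. Of 12 markers of M and P cells, 1 rose (8.33%, against 16.4% of all features) and 3 fell (25%, against 9.72%). The M-cell gene mam3 had 9.10 and 9.09 in air1delta, against 9.73 and 9.90 in wild type (change -0.72 ± 0.09), the M-cell receptor gene mam2 changed by 0.34, and the P-cell genes sxa1 and map4 changed by -0.39 and -0.38. The calls on mam2 and map4 were lost without any one of the 4 arrays, and that on mam2 also after quantile normalization or with the length trend removed. The 3 falls became 1 without wild type replicate 2 or either air1delta array. The part of these shifts in the other results was not tested.

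Noncoding RNAs were called in both directions, close to the background. Of 474 features with noncoding RNA identifiers, 303 had means no higher than a deleted gene in both strains. Among the other 171, 27 rose (15.8%, against 16.4% of all features) and 13 fell (7.60%, against 9.72%). SPNCRNA.410 had 7.25 and 7.31 in air1delta, against 6.14 and 5.71 in wild type and 6.09 and 5.98 in cid14delta (change 1.35 ± 0.15, adjusted p = 0.00858). SPNCRNA.564 rose by 0.85 ± 0.09. The table held 2 noncoding RNAs without a reference match, singled out after their values were seen, that fell by over 1 on the log2 scale. SPNCRNA.76 had 9.96 and 9.90 in air1delta, against 10.73 and 11.46 in wild type (change -1.17), and SPNCRNA.108 had 9.51 and 9.47 in air1delta, against 10.59 and 10.67 in wild type (change -1.14). The rises over all 474 numbered 32, and 19 after quantile normalization, 16 without wild type replicate 2 and 12 without air1delta replicate 1 or 2. With the length trend removed 12 were higher and 16 lower. That fit holds only features with a length in the reference table, so noncoding RNAs without a match could not be counted in it. The 19 falls became 27 after quantile normalization, and 3 and 4 without air1delta replicate 1 and 2 in turn.

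Near the chromosome ends the calls were close to the background. Of 86 genes at the ends of chromosomes I and II in the reference table, 15 rose (17.4%, against 16.4% of all features) and 6 fell (6.98%, against 9.72%). The largest called rise was in ftm4 and the largest called fall in SPAC212.04c. The rises numbered 4 without air1delta replicate 1 and 7 without air1delta replicate 2. SPBPB21E7.08, a pseudogene, had 7.98 and 7.77 in air1delta, against 6.55 and 6.55 in cid14delta and 6.97 and 7.12 in wild type (change 0.83 ± 0.10). The 3 measured Tf2 retrotransposon genes, which share nearly the same sequence, had changes between -0.33 and -0.26, and none was called. Of 29 pseudogenes, 9 rose (31.0%, against 16.4% of all features) and 1 fell (3.45%, against 9.72%), and 4 of the 9 belong to the wtf family.

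Genes next to the deleted locus were read separately. Of the 5 protein-coding genes on each side, 4 were higher (40%, against 16.4% of all features) and none was lower. Besides usp103, swc2, which encodes a subunit of the SWR1 chromatin remodeller, had 9.70 and 9.48 in air1delta, against 8.73 and 8.80 in wild type and 9.07 and 9.06 in cid14delta (change 0.83 ± 0.09, adjusted p = 0.00825). The kinase gene cki2 and the shugoshin gene sgo1 rose by 0.53 ± 0.10 and 0.65 ± 0.15, calls that were lost without wild type replicate 2 or either air1delta array. The other 6 genes (ilv1, nbr1, mit1, ysa1, nup131 and SPBP35G2.04c) changed by -0.26 to 0.33 and were not called. The count of 4 became 2 without wild type replicate 2 or either air1delta array. Whether the position next to the deletion had a part in the 4 rises was not tested.

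Chromatin and DNA replication genes were called in both directions. The list of 39 genes for histones, their variants and chaperones held 11 rises (28.2%, against 16.4% of all features). It held 2 falls (5.13%, against 9.72%), and its median was 0.12. Its rises numbered 7 after centring or quantile normalization and 8 with the length trend removed. Besides chz1, the SWR1 and NuA4 subunit gene yaf9 rose by 0.62 ± 0.07 and changed by -0.28 in cid14delta, where it was not called. The gene ctp1, which encodes a factor for processing of DNA double-strand breaks, had 10.37 and 10.29 in air1delta, against 9.44 and 9.37 in wild type (change 0.92 ± 0.06, adjusted p = 0.00486). Members of 1 complex could move apart. In the 4-subunit GINS replication complex, psf2 had 10.24 and 9.89 in air1delta, against 9.28 and 8.73 in wild type, whereas psf3 had 9.29 and 9.46 in air1delta, against 9.96 and 10.07 in wild type. The GINS gene sld5 was also called higher. The calls on psf2 and psf3 were both lost without air1delta replicate 1. The helicase gene mcm2 changed by -0.55 ± 0.06 while the other 5 MCM genes were not called. Over 37 G1/S and S phase genes, 10 rose (27.0%, against 16.4% of all features) and 4 fell (10.8%, against 9.72%), with a median of 0.030. Those rises numbered 4 when wild type replicate 2 was left out, and 1 and 2 when air1delta replicate 1 and then 2 was left out.

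Nuclear pore genes and sterol genes were called downward or not at all. The median of 32 nuclear pore genes was -0.12, with -0.44 in nup85 and -0.33 in nup186. Of the 32 genes, 8 fell (25%, against 9.72% of all features) and none rose. These calls were weak, and the number was 1 without either wild type array and 0 without either air1delta array. Of 38 genes for ergosterol synthesis and the Sre1 pathway, 6 fell (15.8%) and none rose. The falls included dsc1, a subunit gene of the Golgi ubiquitin ligase that processes Sre1 (-0.58 ± 0.07), beside rbd2 and rbd4. In the 4th of 5 bins of rising signal, which holds the median levels of both lists, 13.9% of protein-coding genes fell. The squalene epoxidase gene erg1 had 10.58 and 10.61 in air1delta, against 10.66 and 10.43 in cid14delta and 11.20 and 10.96 in wild type (change -0.48). The sterol falls numbered 10 after centring or with the length trend removed, 4 without either wild type array, 2 without air1delta replicate 1 and 3 without air1delta replicate 2.

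Gene length and signal level moved with the calls. In the first of 5 equal bins of protein-coding genes by length in the reference table, which held the shortest, 20.9% were higher and 6.63% lower, and in the bin of the longest, 7.65% were higher and 12.7% lower. Likewise, 19.4% were higher and 3.63% lower in the bin of lowest signal, and 8.56% were higher and 17.5% lower in the bin of highest signal. With the trend with length removed, 653 features rose and 715 fell, among those with a length in the reference table. The median length was 702.5 bases for the large-subunit ribosomal proteins, and 1840 and 1752.5 bases for the large-subunit assembly and spliceosome lists. The part of length and signal level in these results was not tested. By chromosome, 16.0%, 15.9% and 18.8% of features were higher on I, II and III.

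**Figure D5:**
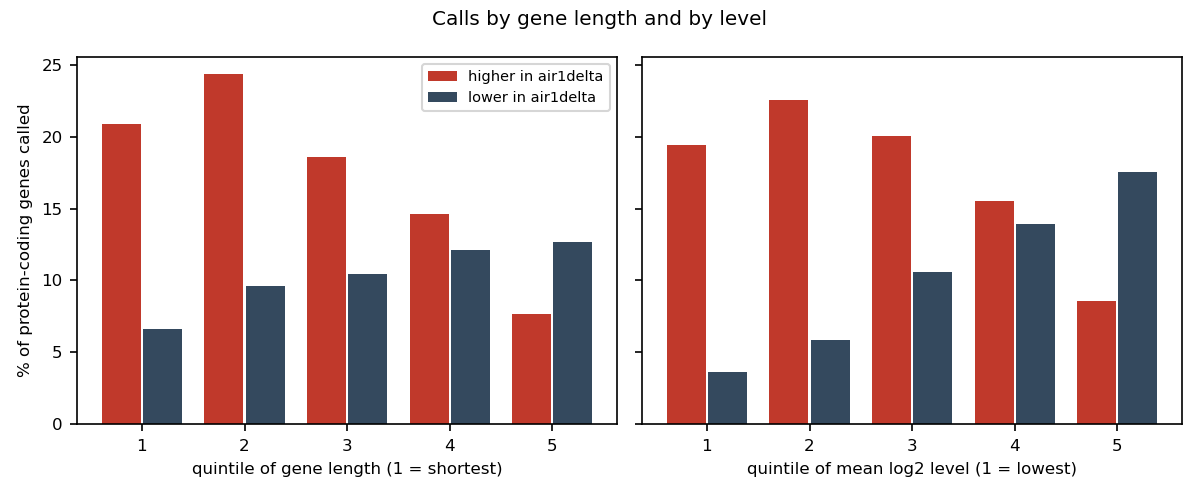
Percentage of protein-coding genes called higher or lower in air1delta, by quintile of gene length (left) and by quintile of mean log2 level (right), as bars from 0. The share called higher falls from 24.3% in the 2nd to 7.65% in the 5th length quintile, while the share called lower climbs from 3.63% to 17.5% across the level quintiles.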

How the data were processed

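The authors deposited 1 table of log2 values, 1 per feature and array, and all 6 columns were used. The log2 scale was inferred from the deposited values, which ran from 2.75 to 14.8. The affy software is named, without a version, per the submitters' processing notes. How the arrays were background-corrected, normalized and summarised, and on which genome build, is not given in the sources used here. Of 5483 features, 5357 matched the ASM294v3 gene table (20 through a synonym), which served for names, lengths and gene order only.

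Each deletion strain was set against wild type in R 4.3.3 with limma 3.58.1 (lmFit with strain as the only factor, eBayes, two-sided, Benjamini-Hochberg over all 5483 features), on all 6 arrays, with 3 residual degrees of freedom. Calls required an adjusted p below 0.05. Errors are standard errors. With 2 arrays per strain, their number limits the precision. The procedure was tested on simulated data. Alternatives were other scalings, samples, blocks, variance models, filters and thresholds.

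The members and gene lists were chosen with earlier results of these data known. List members whose names proved to belong to other genes were removed after their values were seen (among them sqs1 and sqs2 from the sterol list, rrs1 from the synthetases, cor1 from the respiratory chain and mlo2 from the nuclear pore). Named genes were the 15 largest rises and falls among called, matched features whose strains did not overlap and whose higher mean exceeded the level of a deleted gene, up to 4 members with the smallest p from each list, and the neighbours of air1. Other genes named were chosen after their values were seen.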

Additional observations from a re-analysis of the deposited data

How the results depend on the processing

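No called named gene changed direction under any alternative. Calls (higher, lower) were 1466 (640, 826) after median centring, 1278 (616, 662) after quantile normalization, 1606 (969, 637) with an intensity trend and robust prior, 1572 (980, 592) among features above the level of a deleted gene, 178 (129, 49) at an adjusted p under 0.01, and 870 (579, 291) in the 4 arrays of both strains. Leaving out 1 array of any strain gave 273 to 952 calls, 202 to 634 higher and 71 to 318 lower. These fits have 2 residual degrees of freedom, and the lone array of a strain is assumed to vary like the others. Without a cid14delta array the fit equals that of the 4 arrays. No shift shared by same-numbered arrays was seen over all features. Their deviations correlated at 0.0413 between air1delta and wild type, 0.0159 between air1delta and cid14delta and -0.00632 between cid14delta and wild type. Such correlations cannot show that the arrays were unpaired. A replicate block gave 1121 calls (727, 394), and in the 4 arrays of both strains 208 (159, 49). Date as a random block left 1434 calls, at an estimated correlation of -0.00586 within a date. It cannot remove a date difference between the strains, since the air1delta cultures carried other dates. An alternative chosen after seeing the data, removal of the trend with gene length, gave 1368 calls (653, 715). It covers only features with a length in the reference table, and the others count as not called. Of the 176 named genes called, 23 were no longer called after quantile normalization, 8 after centring, 8 with the replicate block, 9 without the length trend, and 35, 56, 89 and 93 without wild type replicate 1, wild type replicate 2, air1delta replicate 1 and air1delta replicate 2. In the 4 arrays of both strains 25 were lost, with a replicate block in those 4 arrays 107, and at an adjusted p under 0.01 106. The fit without the length trend held 173 of the 176. The causes were not tested. Signal over background limited 415 features, whose means were no higher than a deleted gene in both strains.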
